A study of Mus musculus with 2 samples.

Results

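The genes described here move iron into cells, hold it, release it from heme and send it out again. They are 10 mouse genes: the transferrin receptor Tfrc, the ferrireductases Steap3 and Steap4, the divalent metal transporters Slc11a2 and Slc11a1, the exporter Slc40a1, the heme oxygenase Hmox1, the ferritin chains Fth1 and Ftl1, and the iron regulatory protein Ireb2. They were taken by name, and a probe counted as theirs when the RefSeq accession that the array files give for it belongs to 1 of these genes. All 10 were found, on 16 probes and 25 spots, among 20654 named genes on the arrays. RNA was hybridised to 1-colour (Cy3) Agilent mouse arrays, 1 for Dnmt3a knockout and 1 for wild type cells, both from female C57BL/6 mice. In both groups, marrow cells that did not adhere were grown for 2 days in M-CSF, the macrophage growth factor, and the precursors attached by then received RANKL in addition, which turns them into osteoclasts, the bone-resorbing cells. Dnmt3a encodes a DNA methyltransferase that sets new methylation marks. The allele used, the cells that had lost the gene, the age of the mice and whether animals were pooled are not given in the sources used here.

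Cells take up iron bound to transferrin through the transferrin receptor. In the acid endosome the iron is reduced by a Steap protein and carried into the cytosol by Slc11a2 (DMT1), where ferritin stores what is not used. Macrophages also recover iron from the heme of engulfed red cells, through Hmox1, and release it through ferroportin, the product of Slc40a1. In osteoclasts, iron uptake through the transferrin receptor has been linked to the build-up of mitochondria that accompanies their maturation, together with the coactivator Ppargc1b. Iron regulatory proteins bind stem-loops in messenger RNAs: at the end of the Tfrc message they protect it from decay, and at the start of the ferritin and ferroportin messages they hold back translation, which an array of RNA does not read.

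All 10 genes were well above background on both arrays, in each of their 25 spots, and 0 of these spots were saturated or marked as uneven. Signals were scaled to the 75th percentile of each array, and a difference is the log2 signal of the knockout minus that of wild type. Its error (SE) combines the errors that the scanner software gives for the spot on each array, typically 0.20 on the log2 scale. It is the software's estimate for a spot and says nothing of how cultures or mice vary. It is wider than the scatter between repeated spots. Over 259 probes with at least 8 spots well above background on both arrays, the median SD of the difference between spots was 0.066. Each genotype has a lone array, so differences are described without a test or p-value. Of the 10 genes, 0 were 2-fold or more apart between the arrays, a limit passed upward by 0.824% and downward by 0.727% of the 13479 genes measured on both arrays. On their brightest probe, 2 genes were higher in the knockout by more than the scanner error (Slc11a1 and Slc40a1), beside 24.0% of measured genes. On the same probes 3 were lower by more than the error (Tfrc, Steap3 and Steap4), beside 21.5%. The further probe of Steap3 went the other way (0.44). The share of members beyond the error, 50%, was thus near the 45.6% of all genes, and their median difference was 0.04, beside 0.01 for all genes. The genes went both ways, and the account below is of single genes rather than of a shift of the whole group.

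**Figure D1:**
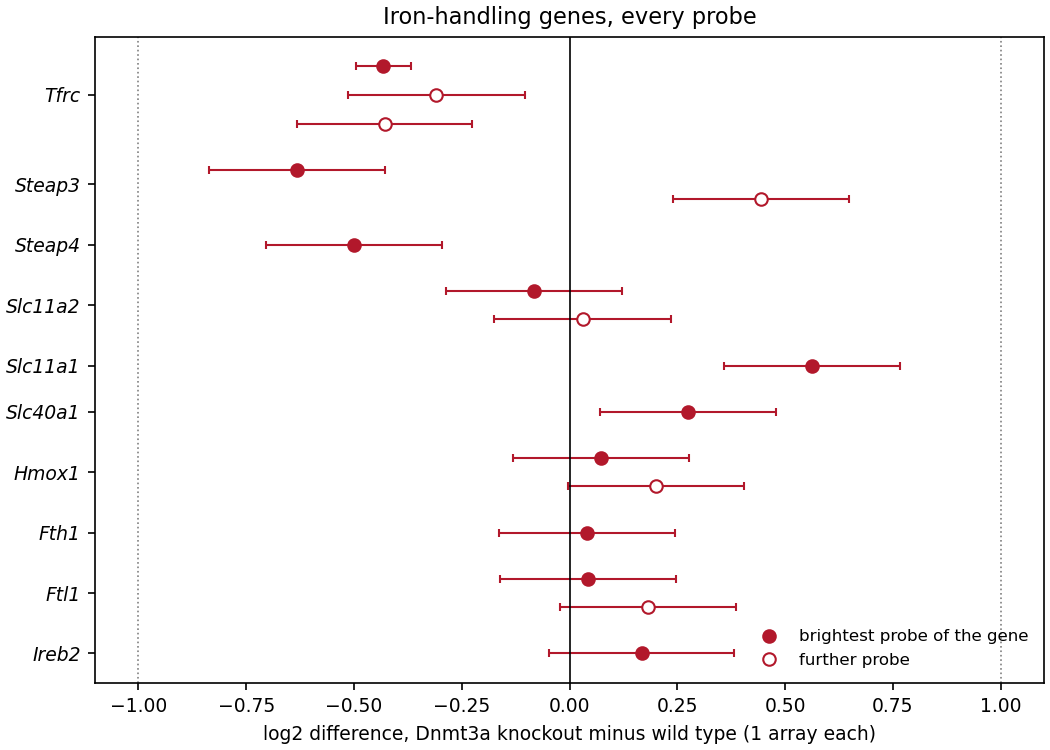
Log2 difference of each probe of the 10 genes, Dnmt3a knockout minus wild type, 1 array each; filled points are the brightest probe of a gene, open points further probes, bars the scanner error, and dotted lines mark 2-fold. The 3 Tfrc probes lie together between -0.43 and -0.31, and the 2 Steap3 probes lie on opposite sides of 0.

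**Figure D2:**
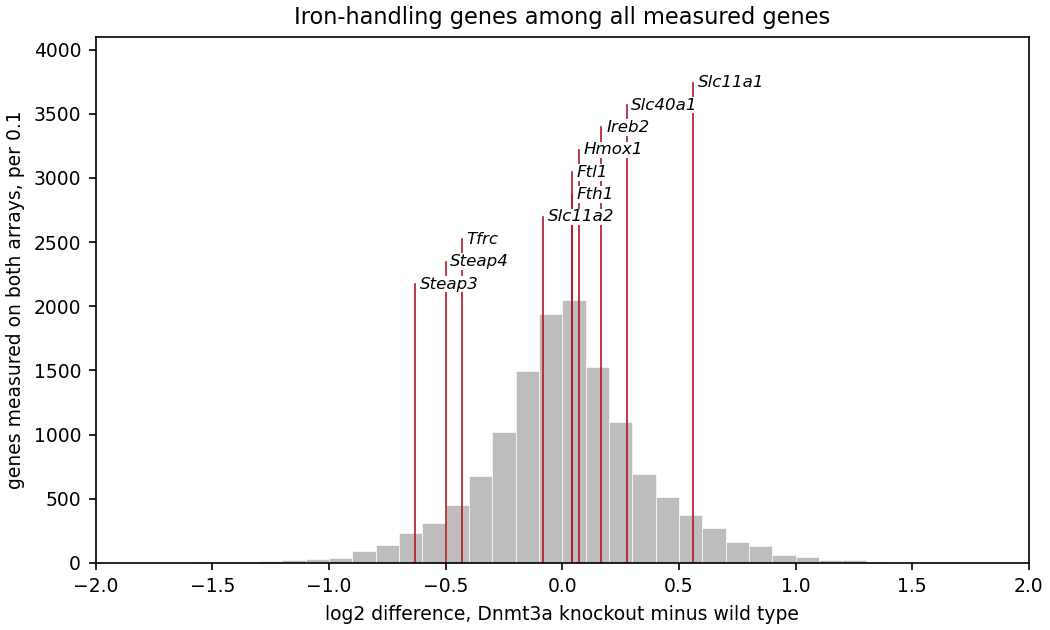
Number of genes measured on both arrays per 0.1 of log2 difference, Dnmt3a knockout minus wild type, drawn between -2 and 2, with the 10 iron-handling genes marked by lines whose height has no meaning. Steap3 (on its brightest probe), Steap4 and Tfrc lie on the low side and Slc11a1 on the high side. All 4 are short of the 2-fold limit at -1 and 1.

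A direction here is set against the bulk of the genes. The 8 spike-in probes, which report RNA added in a fixed amount at labelling, were higher on the knockout array by 0.30 to 0.73 after this scaling (median 0.53), and scaling to them lowers every difference by 0.53, which turns the smaller positive ones negative. The median of all measured genes was then -0.52, and 9 of the 10 iron genes were below 0. The culture is a bulk sample, in which fewer cells of a type and less RNA per cell cannot be told apart. Dnmt3a itself gave a signal of 1822 in the knockout and 7042 in wild type, a difference of -1.92 (3.79-fold lower, 1 probe). The osteoclast markers Acp5 and Ctsk were bright on both arrays, with signals of 442434 and 356772 in the knockout and 451856 and 413300 in wild type.

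The promoters of Tfrc, Steap4 and Slc11a1 are shown because these are the members with a difference beyond 0.4 on the log2 scale and no probe that opposes it. Each window, from RefSeq (GRCm38.p6, + strand), runs 5′ to 3′ from 250 bases before to 30 bases after the transcript start, with each CG dinucleotide, the target of DNA methyltransferases, in capitals. The positions are chr16:32608646-32608925 for Tfrc, chr5:7960222-7960501 for Steap4 and chr1:74374953-74375232 for Slc11a1.
Tfrc: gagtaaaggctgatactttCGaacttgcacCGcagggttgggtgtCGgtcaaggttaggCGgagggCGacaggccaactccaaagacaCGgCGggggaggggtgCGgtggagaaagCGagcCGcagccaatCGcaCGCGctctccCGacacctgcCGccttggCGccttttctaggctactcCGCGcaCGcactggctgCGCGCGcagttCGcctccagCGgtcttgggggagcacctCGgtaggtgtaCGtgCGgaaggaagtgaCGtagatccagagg
Steap4: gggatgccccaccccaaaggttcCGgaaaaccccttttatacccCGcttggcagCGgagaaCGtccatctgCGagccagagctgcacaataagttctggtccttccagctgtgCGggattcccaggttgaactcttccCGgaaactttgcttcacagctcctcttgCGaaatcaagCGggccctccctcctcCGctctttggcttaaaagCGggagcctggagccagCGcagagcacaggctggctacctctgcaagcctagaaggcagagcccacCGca
Slc11a1: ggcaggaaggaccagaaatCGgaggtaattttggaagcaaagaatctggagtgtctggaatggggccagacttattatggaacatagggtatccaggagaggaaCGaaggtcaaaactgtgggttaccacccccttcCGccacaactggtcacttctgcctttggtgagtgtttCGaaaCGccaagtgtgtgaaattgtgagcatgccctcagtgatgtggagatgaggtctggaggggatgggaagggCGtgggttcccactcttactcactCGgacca

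These windows hold 28 CG dinucleotides in Tfrc, 13 in Steap4 and 7 in Slc11a1. Over the full RefSeq windows of 300 bases the counts were 30, 16 and 7, and 88.3%, 67.0% and 47.9% of the 32851 windows in the table hold fewer (median 7). These 3 windows were picked by the difference of their genes, so no link between CG content and direction can be read from them. Methylation was not measured. RefSeq windows were found for 7 of the 10 genes, 12 windows in all, since a gene can have several starts. Fth1, Ireb2 and Ftl1 were within the scanner error. The window at the annotated downstream start of Fth1 holds 27 CG and that at its other start 4. Those of Ireb2 and Ftl1 hold 28 and 20. The windows of the 4 Steap3 starts hold between 4 and 16.

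Short motifs were searched on both strands of the 300 bases. The Tfrc window above holds ACGTG, the core bound by hypoxia-inducible factors, from 2 bases before the start (in 19.6% of all windows), GGAAGT, an Ets core, from base 9 after it (23.8%), and TGACG, the first part of a cyclic AMP response site, from base 14 (20.8%). The last T of GGAAGT is the first base of TGACG there. None of these 3 was found in the windows of Steap4 or Slc11a1. GGGCGG, the GC box, was found in windows of Tfrc (at its further start), Fth1, Ftl1, Ireb2 and Steap3 (35.7% of all windows). CACGTG, the E-box that contains ACGTG and is bound by Mitf and Tfeb (7.15% of all windows), TGACNNNGC, the antioxidant response core (12.4%), and TGANTCA, the AP-1 site (7.81%), were found in 0 of the 12 windows. A match is a run of letters and not a site shown to be bound, and these windows leave out more distant elements.

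Tfrc, on chromosome 16 (32608896 to 32632794 in GRCm38.p6), encodes the receptor that brings iron-loaded transferrin into the cell. It is the best measured of these genes, since 1 of its 3 probes was printed in 10 spots spread over the array. Over these spots the signal was between 4429 and 5452 in the knockout (median 5179), against 6065 to 7405 in wild type (median 7037). The 2 arrays do not overlap, and the knockout was lower at 10 of 10 spots. The difference was -0.43 with an SD of 0.05 between spots (1.35-fold lower), and it ran from -0.51 to -0.34. The other probes gave 3012 in the knockout against 4140 in wild type (-0.43, SE 0.20) and 403 in the knockout against 509 in wild type (-0.31, SE 0.21). All 3 probes thus put Tfrc lower in the knockout by 1.24-fold to 1.35-fold. Repeated spots show how well 1 pair of arrays was read and are not replicate cultures. Among all measured genes, 8.81% had a lower difference than Tfrc, and among the 6740 genes at or above the median level 5.45% did.

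**Figure D3:**
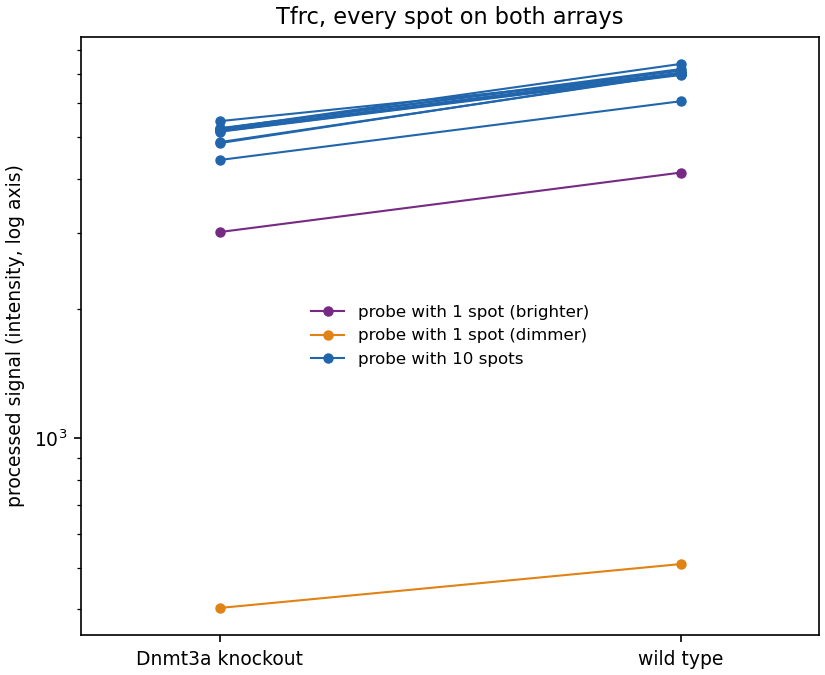
Processed signal (intensity, log axis) of every Tfrc spot on the Dnmt3a knockout array and the wild type array; a line joins the same spot on both. Each of the 12 lines is lower on its knockout side, over the 10 spots of 1 probe and 1 spot of each of the other 2 probes.

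The Steap proteins reduce iron and copper at membranes, and Steap3 is the ferrireductase of the transferrin cycle in red cell precursors. Its 2 probes disagree. The brighter gave 1920 in the knockout against 3037 in wild type (-0.63, SE 0.20), and the other gave 1962 in the knockout against 1472 in wild type (0.44, SE 0.20). The probes lie 1.08 apart on the log2 scale, more than the error of either, and both are assigned to the same accession, so no direction is given for Steap3. Their mean was -0.09. Steap4, which is induced by inflammatory signals in several tissues, gave 1206 in the knockout against 1741 in wild type on its only probe (-0.50, SE 0.20, 1.41-fold lower). Among all measured genes 6.72% had a lower difference. The relatives Steap1 (298 in the knockout against 407 in wild type, -0.42, SE 0.21) and Steap2 (108 in the knockout against 185 in wild type, -0.75, SE 0.21) were lower in the knockout as well. A further Steap2 probe was above background in wild type only (4.56 in the knockout against 130 in wild type), at least 7.19-fold lower.

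Slc11a2 encodes DMT1, which carries ferrous iron across the endosomal membrane. Its brighter probe gave 3114 in the knockout against 3365 in wild type (-0.08, SE 0.20), and the other gave 419 in the knockout against 418 in wild type (0.03, SE 0.21). Both differences are within the scanner error, which does not show that the gene is equal in the 2 cultures. Slc11a1 (Nramp1), its relative in the phagosomes of macrophages and neutrophils, had the largest positive difference of the 10. It gave 43956 in the knockout against 30398 in wild type on its only probe (0.56, SE 0.20, 1.48-fold higher), and 6.42% of all measured genes had a higher difference. Slc40a1, the only known iron exporter of mammalian cells, gave 15310 in the knockout against 12916 in wild type on its only probe (0.28, SE 0.20, 1.21-fold higher). That difference was exceeded by 18.7% of all measured genes. With spike-in scaling Slc11a1 was at 0.03 and Slc40a1 at -0.26, so their direction holds against the bulk of the genes and not against the added RNA. The spots of Slc11a1 and Slc40a1 lie at rows 34 and 26 of the array. With the rows taken in 3 equal blocks, 2.18% of measured genes were past 2-fold in the block with the lowest row numbers, which holds these spots, against 1.19% and 1.26% in the others. Slc11a1 and Slc40a1 are not below the median level of measured genes, and over such genes the shares were 0.603% in that block, against 0.531% and 0.371% in the others. For Tfrc the repeated probe gave a difference of -0.42 over its 3 spots in that block and -0.44 over its 7 other spots.

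Hmox1, which breaks heme down to iron, biliverdin and carbon monoxide, gave 35475 in the knockout against 34451 in wild type on its brighter probe (0.07, SE 0.20). The other probe gave 3367 in the knockout against 2992 in wild type (0.20, SE 0.20), so both were positive and neither passed its error. The ferritin heavy chain Fth1, which oxidises iron as it enters the shell, gave 439649 in the knockout against 436706 in wild type (0.04, SE 0.20). The light chain Ftl1, which helps to form the mineral core, gave 424553 in the knockout against 420712 in wild type on 1 probe (0.04, SE 0.20) and 198097 in the knockout against 178356 in wild type on the other (0.18, SE 0.20). With this scaling the storage genes thus differed by 1.13-fold at most on these probes. That is within the scanner error, which does not show that they are equal. With spike-in scaling Fth1 and Ftl1 were both at -0.49. Ferritin has near-identical pseudogenes (2 for the heavy and 3 for the light chain by name in the RefSeq table), whose RNA these probes may also read. Ireb2, the iron regulatory protein that is degraded when iron is plentiful, gave 156 in the knockout against 141 in wild type (0.17, SE 0.21). Its partner Aco1 gave 161 in the knockout against 191 in wild type (-0.21, SE 0.21). Both are within their error.

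Outside the 10 genes, the wider pathway was followed with fixed lists. Of 14 further iron carriers, transporters, reductases and oxidases, 12 were measured (median -0.15); 4 were higher and 5 lower by more than the error (33.3% and 41.7%, beside 24.0% and 21.5% of all genes). Trf, which encodes transferrin, gave 33878 in the knockout against 21934 in wild type (0.66 on both of its probes). The iron-binding granule protein Ltf (0.55), the siderophore-binding Lcn2 (0.50) and the metal transporter Slc39a8 (0.43) were higher. Steap2, Steap1, Slc39a14 (-0.57), which takes up iron not bound to transferrin, and the receptor homologue Tfr2 (46 in the knockout against 72 in wild type, -0.61, SE 0.28) were lower. Heph, a ferroxidase that works with the exporter, gave 66.3 in the knockout against 81.6 in wild type on its brightest probe (-0.27, SE 0.25). A further probe was above background in the knockout only (26.5 in the knockout against 21.4 in wild type, at least 1.05-fold higher). Both of its signals are near the background limit and the bound is small, so no direction is read from that probe. With this scaling Trf, which encodes the ligand of the transferrin receptor, was thus higher in the knockout culture and Tfrc lower. Spike-in scaling lowers every difference by 0.53, which takes away most of that of Trf. Whether the same cells account for both was not tested. Cybrd1, a ferric reductase, was above background in the knockout only, with a bound of 1.41-fold.

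Among 8 measured genes of heme handling 4 were higher (50%, beside 24.0% of all genes) and 1 lower (12.5%, beside 21.5%) by more than the error, with a median of 0.22 that turned to -0.32 with spike-in scaling. Lrp1, which takes up heme bound to hemopexin, was at 0.37, Hmox2, the constitutive heme oxygenase, at 0.36 (its other probe 0.38), and the biliverdin reductases Blvra and Blvrb at 0.29 and 0.25. The heme exporter Flvcr1 was at -0.35 (2530 in the knockout against 3304 in wild type). The haptoglobin gene Hp (0.03) and the folate and heme carrier Slc46a1 (0.10) were near 0. Hpx, which encodes hemopexin, was above background in the knockout only (75.2 in the knockout against 18.7 in wild type), at least 2.97-fold higher, on 1 dim probe in row 48.

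Of 10 regulators and chaperones of iron 6 were measured, with a median of -0.07. Hfe, the haemochromatosis protein that binds the transferrin receptor, had the largest difference on these lists of the iron pathway among genes measured on both arrays, with 12246 in the knockout against 6405 in wild type (0.96, SE 0.20, 1.95-fold higher, 1 probe). Ncoa4, which delivers ferritin for breakdown, was at -0.27 (29639 in the knockout against 36403 in wild type). Pcbp1 (-0.04) and Pcbp2 (0.07), which hand iron to ferritin, and Fbxl5 (-0.11), which marks Ireb2 for degradation, were within the error. Hamp, Hjv, Bmp6 and Tmprss6, genes of the hepcidin axis of the liver, were not well above background on either array.

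Mitochondrial iron import and iron-sulfur cluster assembly had 17 measured genes with a median of -0.30; 10 were lower by more than the error (58.8%, beside 21.5% of all genes) and 1 was higher. Bola3, a cluster transfer factor, was lowest at -0.50 (its other probe -0.59), and the transporter Abcb10 was at -0.43. The iron importer of mitochondria Slc25a37 was the exception at 0.26 (its other probe 0.36), with Hscb (0.14) and Lyrm4 (0.08) next. The 8 measured enzymes of heme synthesis lay around 0 (median -0.02). Uros (-0.29), Alad (-0.11) and Ppox (-0.04) were lowest, and Cpox (0.11) and Alas1 (0.04) were toward the high end. Alas2, the enzyme of red cell precursors, was not well above background.

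**Figure D4:**
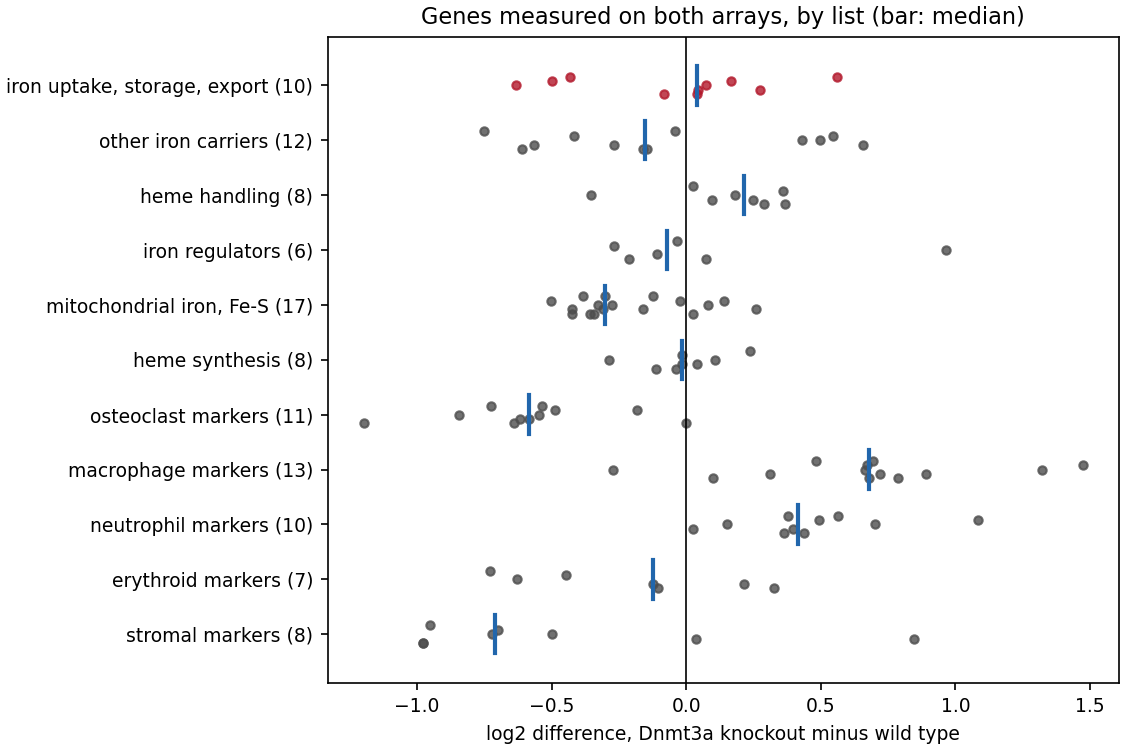
Log2 difference (Dnmt3a knockout minus wild type) of each gene measured on both arrays, by list, with the number of genes in brackets and a blue bar at the median. The iron genes (red) spread to both sides of 0, the mitochondrial iron genes lie mostly below it (median -0.30), and the osteoclast and macrophage markers lie on opposite sides (medians -0.58 and 0.68).

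Among regulators known to act on these genes, Ppargc1b gave 1735 in the knockout against 2539 in wild type (-0.52, SE 0.20). Bach1, which represses Hmox1 and the ferritin genes, was at 0.50 and Keap1, which restrains Nrf2, at 0.44, while Nfe2l2, which encodes Nrf2, an activator of the same genes, was at 0.27. These 3 were higher in the knockout while Hmox1, Fth1 and Ftl1 stayed within the error. Hif1a (-0.07), Mitf (-0.18, its other probe -0.24) and Tfeb (0.21) were near or within it. Epas1 was at -0.03 on its brightest probe and at -0.58 and -0.51 on the others, so its probes disagree.

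Markers of several cell types were set beside the iron genes, of which 5 of 10 were within the scanner error. With 1 array per genotype each gene has 1 difference, so a shared movement of markers and iron genes cannot be shown. Among all measured genes 51.9% were above 0, the share to set beside the count of each list here. Of the macrophage markers 12 of 13 were above 0 (median 0.68), with a summed scaled signal of 990 in the knockout against 799 in wild type. Marco (1.47), Vsig4 (1.32) and Fcgr1 (0.89) were highest. Itgam (-0.27, its other probes 0.22 and 0.32), Csf1r (0.10, its other probes 0.35 and 0.50) and Msr1 (0.31, its other probe 0.43) were lowest. Slc11a1, Slc40a1 and Hfe were higher alongside them. Of the neutrophil markers 10 of 10 were above 0 (median 0.42, but -0.12 with spike-in scaling; summed signal 466 in the knockout against 381 in wild type), from Csf3r (0.02), Elane (0.15) and Camp (0.36) to Mpo (0.56), Retnlg (0.70) and Mmp8 (1.08); Ltf and Lcn2 are granule genes of the same cells. Of the osteoclast markers 11 of 11 were below 0 (median -0.58; summed signal 1729 in the knockout against 1989 in wild type), with Tnfrsf11a (-1.20), Calcr (-0.84) and Oscar (-0.72) lowest and Ocstamp (-0.49), Ctsk (-0.18) and Acp5 (-0.00) nearest to 0, alongside Tfrc and Ppargc1b. Of the stromal markers 6 of 8 were below 0 (median -0.71; summed signal 68.4 in the knockout against 113 in wild type). Cxcl12 (-0.98), Alpl (-0.98) and Col3a1 (-0.95) were lowest, and Sp7 (-0.50), Dcn (0.03) and Bglap2 (0.84) highest. Red cell precursors are rich in Tfrc and Steap3. Of the erythroid markers 5 of 7 were below 0 (median -0.12; summed signal 4.80 in the knockout against 5.99 in wild type), from Hbb-b2 (-0.73), Hba-a1 (-0.63) and Hba-a2 (-0.45) to Gata1 (-0.12), Slc4a1 (-0.10) and Epor (0.33), and the defining markers Klf1, Epb42 and Rhag were not well above background on either array. The part of these cell types in the differences of the iron genes was not tested.

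**Figure D5:**
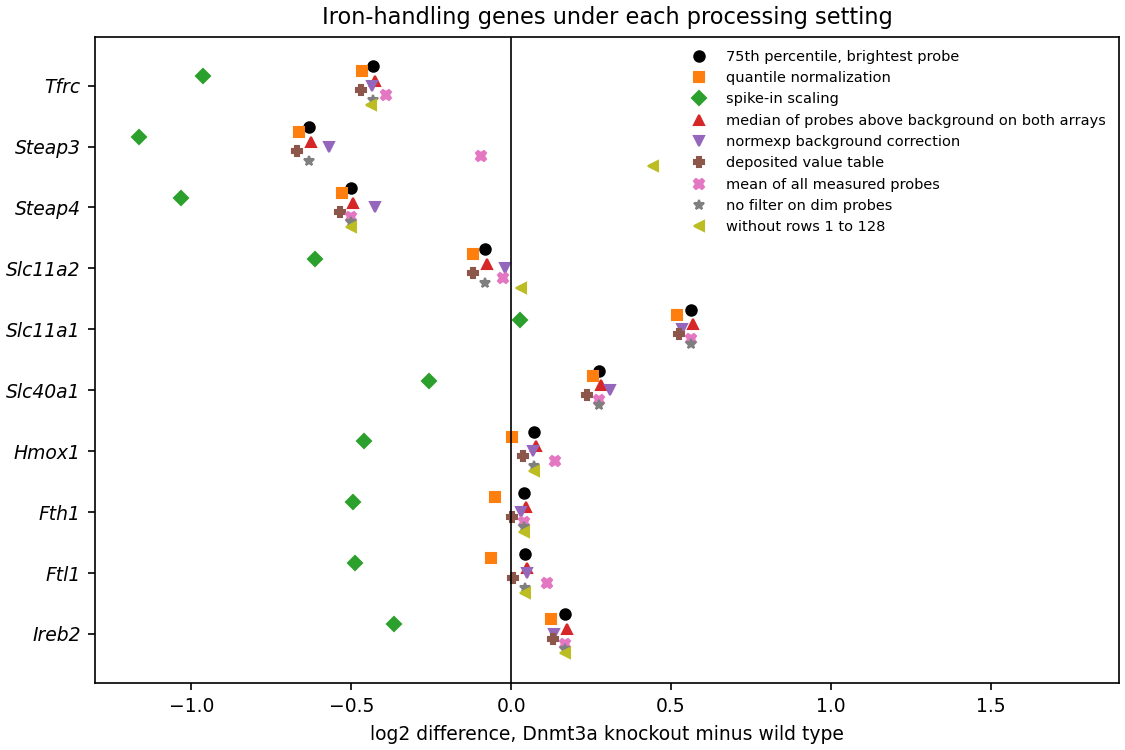
Log2 difference (Dnmt3a knockout minus wild type) of the 10 iron-handling genes under each processing setting. Spike-in scaling moves all of them down by 0.53, the remaining settings keep Tfrc between -0.47 and -0.39, and Steap3 changes side with the probe that stands for it.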

How the data were processed

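Spot intensity was deposited by the authors as scanner output, background-subtracted and detrended within each array; per the file headers it comes from Agilent Feature Extraction 10.10.1.1, while the submitters' processing notes give version 9.1, a conflict left unsettled. No scaling between arrays had been applied. The deposited value table is the same intensity times 1 factor per array (median 1.54 for the knockout, 1.55 for wild type; column medians 66.5 for the knockout and 59.6 for wild type), linear, uncentred and with no ratio; how the factor was chosen is unknown.

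Log2 signals had the array's log2 75th percentile over 59305 non-control spots subtracted (572 for the knockout, 584 for wild type). Marked spots (uneven or population outliers) were dropped, spots of a probe averaged, and the brightest probe stood for its gene. A gene was measured when most of its spots were well above background (59.7% of spots in the knockout, 52.7% in wild type). Where only 1 array was above background the fold is a bound, with the dim side set to its measured signal or to the array's lowest well-above-background signal (17.7 in the knockout, 25.8 in wild type), whichever is greater. Names came from RefSeq accessions (GRCm38.p6; 27224 of 55649 probes). The planned normexp alternative used median in place of mean spot intensity (limma 3.58.1). The 2-fold limit was run on simulated differences well away from it, with noise of about the scanner error. Such a run checks the code and says nothing of how cultures vary.

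Members and lists were chosen with earlier results of these data known. The text names all members, all regulators, the 3 genes at either end of each list, and list genes past 2-fold; others given with a value were added, and some genes the rule names are not reported here. Both arrays share a slide and a scan. The number of arrays limits the precision.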

Additional observations from a re-analysis of the deposited data

How the results depend on the processing

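Of 198 values recomputed under 8 alternative settings, 164 moved by less than the scanner error (counts of genes: by less than 1.5 times). With spike-in scaling all results moved. Tfrc was at -0.96, Steap3 at -1.16, Steap4 at -1.03, Slc11a2 at -0.61 and Slc11a1 at 0.029. Hmox1 (-0.46), Fth1 (-0.49), Ftl1 (-0.49), Ireb2 (-0.36) and Slc40a1 (-0.26) turned from positive to negative. Of these only Slc40a1 had been beyond the scanner error in the main setting. List medians were then -0.69 for further carriers, -0.61 for iron regulators, -0.84 for mitochondrial iron and -0.55 for heme synthesis. They were -1.12 for osteoclast, 0.14 for macrophage, -0.65 for erythroid and -1.24 for stromal markers. The medians of heme handling (-0.32) and neutrophil markers (-0.12) turned from positive to negative with this scaling. So did those of the iron genes (-0.49) and the transcription regulators (-0.44), from values within the scanner error. The median of all genes was -0.52. With this scaling 18 genes were 2-fold higher and 1024 lower (1.73% upward, against 53.1% in the main setting and 39.8% after quantile normalization). Steap3, on its brightest probe, and Steap4 were among those lower. Those counts, 111 and 98 in the main setting, were 42 and 26 after normexp, 1184 and 466 with no filter on dim probes, and 65 and 48 without the block of lowest array rows. Without that block Steap3 turned to 0.44, since only its other probe is left, the erythroid median was -0.45, and Slc11a1 and Slc40a1 have no value; the mean of its probes put Steap3 at -0.094. Except with spike-in scaling, Tfrc stayed between -0.47 and -0.39, Steap4 between -0.54 and -0.43, Slc11a1 between 0.52 and 0.57 and Slc40a1 between 0.24 and 0.31. No paired analysis was possible because each genotype has 1 array.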
